A study of Drosophila melanogaster with 2 samples.

Results

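Transfer RNA (tRNA) genes were examined in chromatin from whole testes, where an immunoprecipitate of dBigH1 was compared with input DNA. The deposited table held 230 genes whose description begins with tRNA or transfer RNA, out of 15421 listed genes. The dBigH1 group was 1 library of fixed chromatin from adult w1118 males, precipitated with an antibody against dBigH1, the linker histone H1 variant of the Drosophila germline. The input group was 1 library of DNA from the same kind of chromatin with no antibody. The w1118 stock, a white-eyed laboratory strain, was common to both groups, and the testes had been pooled and freed of accessory glands by hand. Whole testes hold germ cells of all stages together with somatic cyst and hub cells, so a read cannot be assigned to one of them.

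tRNA genes are short units transcribed by RNA polymerase III, whose promoter elements lie inside the transcribed sequence. Factor TFIIIC binds those elements and brings TFIIIB and the polymerase. Each tRNA reads codons with its anticodon and is loaded with 1 amino acid by an aminoacyl-tRNA synthetase. In flies, as in other animals, many tRNA genes are present as near-identical copies, some scattered singly and some in clusters. A linker histone binds nucleosomes and the DNA between them.

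The dBigH1 library held 2864636 reads and the input library 12747726, a depth ratio of 4.45. With 1 library in each group no test of the conditions was possible, and every comparison below describes these libraries. Intervals are 95% exact intervals of counting error only, since reads were not marked as separate molecules. Ratios are log2 ratios of reads, dBigH1 over input, scaled by the library totals and given relative to the median gene of the table, whose own scaled ratio was 0.498. A log2 value of 0 therefore means the ratio of the median gene. As that gene lay below input, a value above 0 need not be an excess over input. The table lists only genes with at least 1 read in each library, which raises ratios of genes with few reads. A zero-truncated Poisson estimate, which allows for genes that had to have at least 1 dBigH1 read, is given for many of the tRNA groups. It takes the input reads as fixed.

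By read ratio, the tRNA genes together stood somewhat above the median gene, by an amount that depended on how unlisted genes were allowed for. They held 501 dBigH1 reads against 2832 input reads. The pooled log2 ratio was 0.66 (0.52 to 0.80), or 1.58-fold above the median gene (1.43 to 1.74). The zero-truncated estimate was 0.38 (0.22 to 0.53). All listed genes together, in which long genes weigh most, had a pooled log2 ratio of 0.40, so that the zero-truncated estimate for tRNA genes lay next to the ratio of all reads in genes. The median tRNA gene stood at 0.57. On the standardized MAnorm score that the authors deposited it was -0.28, the opposite sign. The 16 tRNA genes with at least 20 input reads had 36 dBigH1 reads against 365 input reads and a pooled ratio of -0.18 (-0.72 to 0.31), an interval that spans the median gene. Selecting genes by input reads, the denominator, lowers the ratio by an amount that was not measured, so this value cannot settle the direction of the whole group.

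Single tRNA genes rested on very few reads. The median tRNA gene was 73 bp long and had 2 dBigH1 reads and 12 input reads. In the dBigH1 library 80 genes had 1 read, 77 had 2, 45 had 3, 15 had 4, 7 had 5, 5 had 6 and 1 had 7. In input the genes ranged between 2 and 28 reads. A gene with 1 dBigH1 read lay at least 1.5-fold below the median gene only with 14 or more input reads. Of all 230 tRNA genes, 91 had that many, counted at any number of dBigH1 reads. The interval of a gene with 1 dBigH1 read could lie wholly below only with 52 input reads, which none had.

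**Figure D1:**
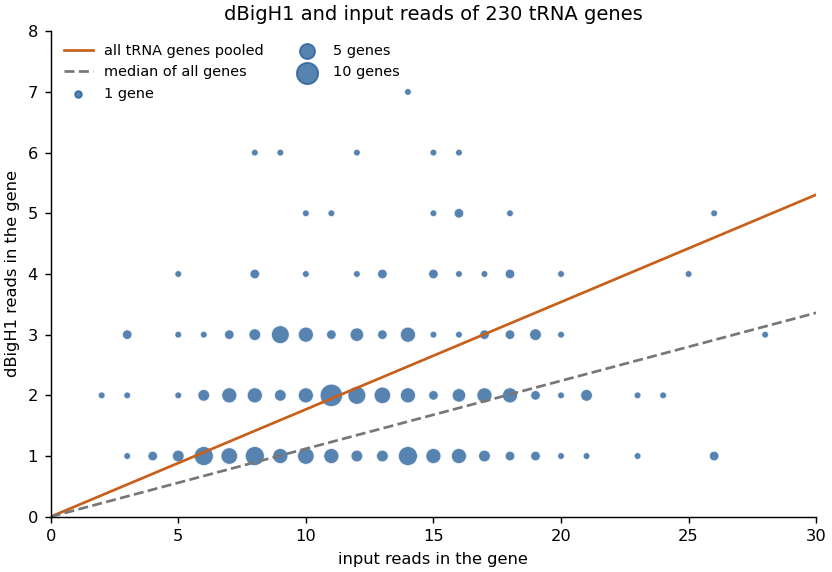
dBigH1 reads (vertical axis) against input reads (horizontal axis) for the 230 tRNA genes, with circle area for the number of genes at each point. The solid line is the pooled tRNA ratio of 501 to 2832 reads and the dashed line the ratio of the median gene. Most genes sit at 1 to 3 dBigH1 reads, on both sides of the lines.

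By the read ratio, 106 of the 230 tRNA genes, or 46.1%, exceeded the median gene by 1.5-fold or more, as did 16.2% of all genes. Another 30, or 13.0%, were lower than it by 1.5-fold or more, as were 17.3% of all genes. The 526 other genes of up to 150 bp, with a median of 2 dBigH1 reads, had similar shares. Of these short genes 54.0% were higher and 12.7% lower, so the share of higher genes was not particular to tRNA genes. Intervals lay wholly above the median gene for 11 tRNA genes, a share under the 17.9% of all genes, and for 0 wholly below, where 9.41% of all genes did. For the other 219 tRNA genes the interval spanned the median gene.

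The 11 genes were spread over 9 amino acids and 4 chromosome arms. They were picked by their own ratios, and ranking genes by dBigH1 reads, the numerator, favours high ratios. Coordinates are those of build dm3, and each amino acid and anticodon is taken from the RefSeq symbol. The gene with the most dBigH1 reads was the aspartate gene tRNA:CR31914 (FBgn0051914, chromosome 2L, 5241106 to 5241177), overlapping tkv, a BMP receptor gene. It had 7 dBigH1 reads against 14 input reads, or an RPKM of 33.9 against 15.3, and its log2 ratio was 2.16 (0.61 to 3.56). The glycine gene tRNA:gly3:56EFb (chromosome 2R, 16120302 to 16120372), overlapping CG11044, had 6 dBigH1 reads against 8 input reads and stood at 2.74 (0.94 to 4.46). The glutamate gene tRNA:CR30238 (chromosome 2R, 12106879 to 12106950), overlapping the chaperone gene mrj, had 6 against 9 and stood at 2.57 (0.80 to 4.23). The table does not say whether these overlaps are exonic or intronic, and reads there can count for both genes. Many tRNA genes also share their mature sequence with other genes. With reads of 50 nt, some reads counted for a named gene may come from its copies.

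Further genes of the 11 included the glycine gene tRNA:gly3:22BCa, overlapping CG7337, with 6 dBigH1 reads against 12 input reads and a log2 ratio of 2.16 (0.46 to 3.68). The proline gene tRNA:P:35Bb had 5 against 10 and also stood at 2.16 (0.26 to 3.84). The tryptophan gene tRNA:CR30209 had 5 against 11 and stood at 2.02 (0.14 to 3.66). The valine gene tRNA:val3b:92Ba, overlapping Naam, had 6 against 15 and stood at 1.84 (0.18 to 3.28). The alanine gene tRNA:CR31575, overlapping CG14322, had 6 against 16 and stood at 1.74 (0.10 to 3.17). The last 3 had few reads in both libraries. The threonine gene tRNA:CR30260 had 4 against 5 (2.84, 0.50 to 5.05). The serine gene tRNA:ser774:12Ef on the X and the aspartate gene tRNA:CR31603 each had 3 dBigH1 reads against 3 input reads (3.16, 0.26 to 6.06).

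Genes with the most input reads were described too, and picking them by the denominator favours low ratios. The leucine gene tRNA:CR30235 had 3 dBigH1 reads against 28 input reads and a log2 ratio of -0.06 (-2.43 to 1.63). The aspartate gene tRNA:CR31416 had 5 against 26 (0.78, -0.96 to 2.18), and the leucine gene tRNA:CR31383 had 4 against 25 (0.51, -1.47 to 2.05). The isoleucine gene tRNA:ile:49Fa, overlapping CG42321, and the glutamine gene tRNA:CR31669, overlapping CG4238, each had 1 against 26 (-1.54, -6.90 to 1.06). Picking genes by dBigH1 reads, the numerator, favours high ratios in the same way. Among the 13 genes with at least 5 dBigH1 reads, tRNA:CR31416 was the lowest, followed by the valine gene tRNA:val3b:84Dc, with 5 against 18 (1.31, -0.47 to 2.79). The next were the leucine gene tRNA:CR31143, with 5 against 16 (1.48, -0.32 to 2.99), and tRNA:CR31888, an aspartate gene with the same reads. The glutamine gene tRNA:CR31070 had 5 against 15 (1.57, -0.24 to 3.11).

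Pooling by amino acid gave more reads per value. The table's own names give the amino acid of 101 genes, in 17 pools, and the other 129 genes are named by number only. Of these 17 pools, 15 lay above 0 by value, and 12 of the 16 with a zero-truncated estimate did, but the intervals of only 2, glycine and valine, lay wholly above the median gene, and of none below. The 13 genes named glycine had 37 dBigH1 reads against 141 input reads, a log2 ratio of 1.23 (0.66 to 1.76) and a zero-truncated estimate of 1.09 (0.53 to 1.58). The 8 named valine had 27 against 106, a log2 ratio of 1.19 (0.52 to 1.81) and a zero-truncated estimate of 1.12 (0.48 to 1.66). Both stayed above the median gene without the member that had the most dBigH1 reads, glycine at 1.06 (0.44 to 1.63) and valine at 1.04 (0.28 to 1.74).

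The intervals of summed reads of the remaining named pools spanned the median gene. For basic residues, the 15 arginine genes had 25 dBigH1 reads against 155 input reads (0.53, -0.15 to 1.14). The 14 lysine genes had 25 against 151 (0.56, -0.11 to 1.18), and the only gene named histidine, a pseudogene, had 1 against 9 (-0.01, -5.47 to 2.84). For acidic residues and their amides, 4 glutamate genes had 9 against 35 (1.20, -0.04 to 2.28) and 2 aspartate genes had 5 against 26 (0.78, -0.96 to 2.18). The 8 asparagine genes had 14 against 77 (0.70, -0.24 to 1.53), and 1 glutamine gene had 2 against 11 (0.70, -2.52 to 2.89).

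Among the other named pools, 8 serine genes had 13 dBigH1 reads against 77 input reads (0.59, -0.38 to 1.45), and 6 proline genes had 14 against 87 (0.52, -0.41 to 1.35). The 6 methionine genes had 14 against 85 (0.56, -0.37 to 1.38), 6 tyrosine genes had 13 against 94 (0.30, -0.66 to 1.15), and 4 leucine genes had 7 against 54 (0.21, -1.17 to 1.35). The alanine gene had 3 against 14 (0.94, -1.50 to 2.78). The selenocysteine gene tRNA:SeCys, whose tRNA reads a stop codon in selenoprotein messages, had 2 against 13 (0.46, -2.73 to 2.60). The lowest pool was isoleucine, whose 3 genes had 4 against 64 (-0.84, -2.76 to 0.58), and its zero-truncated estimate of -1.98 (-6.05 to -0.01) lay wholly below the median gene. Zero-truncated estimates were also below 0 for arginine (-0.07, -1.01 to 0.67), leucine (-0.30, -2.21 to 0.94) and serine (-0.06, -1.46 to 0.95), all with intervals that spanned it. They were 0.08 for lysine, 0.18 for asparagine, 0.03 for tyrosine, 0.34 for methionine, 0.31 for proline, 0.37 for glutamine and 0.13 for selenocysteine.

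Set against all other tRNA genes by an exact conditional odds ratio, 2 of the 17 named pools had an interval that left 0, with no allowance for the number of pools. Glycine lay 0.61 above the other tRNA genes on the log2 scale (0.02 to 1.16). Isoleucine, whose 3 named genes lie in the same cluster, lay below them, with a difference of -1.52 (-3.45 to -0.09). Valine, at 0.55, had an interval of -0.13 to 1.19.

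RefSeq symbols gave an amino acid and an anticodon for 226 of the 230 genes, in 22 pools with initiator and elongator methionine kept apart. This naming was added after the values had been seen. For the 98 genes named in both sources, the amino acid was the same in all 98. By value 21 of the 22 pools lay above the median gene, and 17 did with the zero-truncated estimate. On summed reads 9 had intervals wholly above it. With the zero-truncated estimate 4 had such intervals, namely glutamate, aspartate, glycine and valine, and isoleucine lay below.

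**Figure D2:**
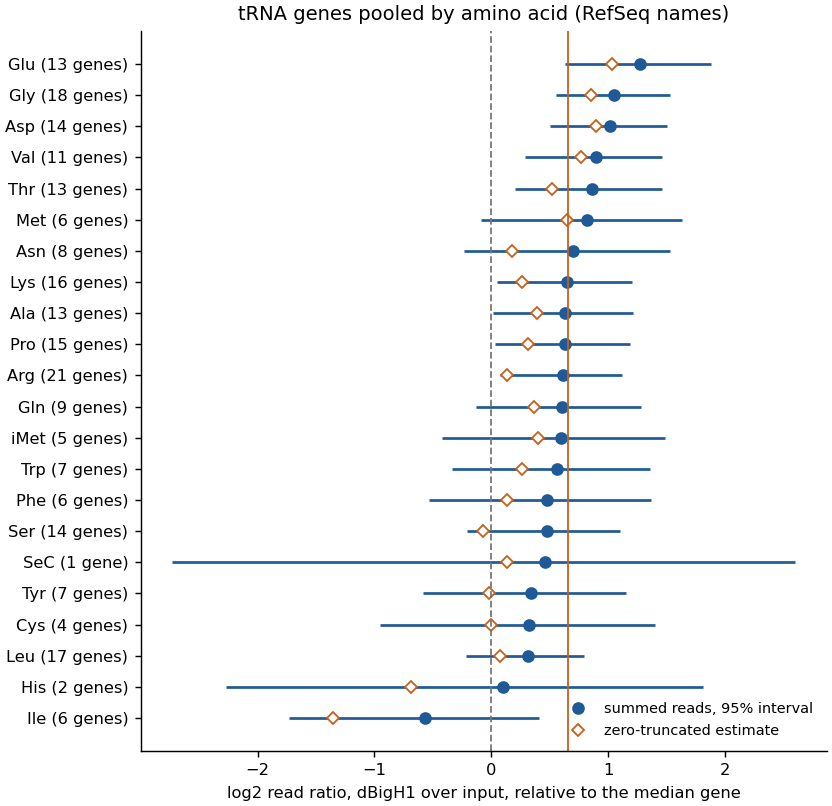
Log2 ratio of summed reads, dBigH1 over input, relative to the median gene (horizontal axis) for tRNA genes pooled by the amino acid in their RefSeq symbol (filled circles, bars for the 95% counting interval), with the zero-truncated estimate as open diamonds. The dashed line is the median gene and the solid line all tRNA genes at 0.66. Glutamate lies highest at 1.27 and isoleucine lowest at -0.57, and most bars cross the solid line.

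The 13 glutamate genes had 29 dBigH1 reads against 107 input reads and a log2 ratio of 1.27 (0.63 to 1.88), with a zero-truncated estimate of 1.03 (0.32 to 1.62). They include tRNA:CR30449, a pseudogene by its RefSeq symbol. The 18 glycine genes had 45 against 194 and stood at 1.05 (0.55 to 1.52), with a zero-truncated estimate of 0.86. The 14 aspartate genes had 43 against 190 and stood at 1.01, or 2.02-fold above the median gene (1.42 to 2.83), with a zero-truncated log2 estimate of 0.90. The 11 valine genes had 31 against 149 and stood at 0.89 (0.29 to 1.46), with a zero-truncated estimate of 0.77. Without the member with the most dBigH1 reads these 4 pools still lay wholly above the median gene. Threonine, with 13 genes, 27 against 133 reads and a ratio of 0.86 (0.20 to 1.46), did not, at 0.68 (-0.03 to 1.33), and its zero-truncated estimate was 0.52 (-0.25 to 1.15). The threonine pool also includes a pseudogene by RefSeq symbol, tRNA:CR32034.

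The larger pools of alanine, arginine, lysine and proline lay just above the median gene on summed reads and lost that place with the zero-truncated estimate. The 21 arginine genes had 38 dBigH1 reads against 222 input reads (0.61, 0.08 to 1.11) and a zero-truncated estimate of 0.14 (-0.56 to 0.71). The 16 lysine genes stood at 0.65 (0.04 to 1.20), the 13 alanine genes at 0.63 (0.01 to 1.21) and the 15 proline genes at 0.63 (0.03 to 1.18), with zero-truncated estimates of 0.26 for lysine, 0.39 for alanine and 0.32 for proline. For methionine, the 5 initiator genes, whose tRNA starts translation, had 12 against 71 (0.59, -0.42 to 1.49) and the 6 elongator genes had 15 against 76 (0.82, -0.09 to 1.63). The 17 leucine genes had 39 against 281, the most input reads of any pool, and stood at 0.31 (-0.21 to 0.80), with a zero-truncated estimate of 0.07 (-0.52 to 0.58). For the other 10 pools the intervals spanned the median gene, with values of -0.57 for isoleucine to 0.70 for asparagine and zero-truncated estimates of -1.35 for isoleucine to 0.36 for glutamine.

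Isoleucine was the only one of the 22 pools whose difference from all other tRNA genes had an interval off 0. The difference was -1.26 (-2.44 to -0.28), with no allowance for the number of pools. The 6 isoleucine genes each had 1 or 2 dBigH1 reads, 9 in all, against 119 input reads. The 4 genes with anticodon AAT, all in the same cluster on 2R, had 1, 2, 1 and 1 dBigH1 reads against 26, 21, 17 and 14 input reads. The 2 with anticodon TAT, tRNA:CR32480 and tRNA:CR32481, lie together on 3L and had 2 each against 18 and 23. No isoleucine gene had more than 2 dBigH1 reads. Other genes within 20 kb of the isoleucine genes stood at 0.10, and the isoleucine pool differed from them by -0.67 (-1.83 to 0.31). The difference from the neighbours was within counting error.

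By anticodon, 10 of 45 pools had intervals wholly above the median gene, and 5 did with the zero-truncated estimate. These 5 were glycine GCC, valine CAC, glutamate TTC, aspartate GTC and glutamine TTG. Isoleucine AAT lay wholly below with the zero-truncated estimate, at -2.24 (-6.32 to -0.24), while its interval on summed reads spanned the median gene. The 13 glycine GCC genes are those that the table names glycine. Their dBigH1 reads were 1 in 3 genes, 2 in 3, 3 in 4, 4 in 1 and 6 in 2, and input reads were 3 to 18 per gene. The 5 valine CAC genes had 3, 3, 5, 6 and 4 dBigH1 reads against 10, 12, 18, 15 and 15 input reads. All 5 were at 3 or more dBigH1 reads, and their pooled log2 ratio was 1.42 (0.64 to 2.14). The 6 glutamate TTC genes had 6, 2, 2, 3, 2 and 3 against 9, 12, 7, 7, 11 and 9, and stood at 1.55 (0.69 to 2.34). The 3 glutamine TTG genes had 2, 4 and 5 against 9, 8 and 15, and stood at 1.62 (0.48 to 2.64).

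Genes for the same amino acid were compared between anticodons where both pools had at least 30 input reads, which gave 20 pairs. The interval of the difference left 0 in 1 of the 20 pairs, with no allowance for the number of pairs. Glutamine genes with CTG lay below those with TTG by a log2 difference of -1.63 (-3.17 to -0.11), with 10 dBigH1 reads against 91 input reads in the 6 CTG genes and 11 against 32 in the 3 TTG genes. The zero-truncated estimates were -0.63 (-2.24 to 0.47) for CTG and 1.57 (0.53 to 2.37) for TTG. Valine AAC genes, with 9 against 71 reads, differed from valine CAC genes by -1.24 (-2.65 to 0.07). For glycine, GCC genes differed from TCC genes by 0.79 (-0.45 to 2.20), and for lysine, CTT genes differed from TTT genes by -0.35 (-1.70 to 1.14). In 10 of the 20 pairs the interval reached 2-fold or more in both directions, so such differences were not detectable at this depth.

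**Figure D3:**
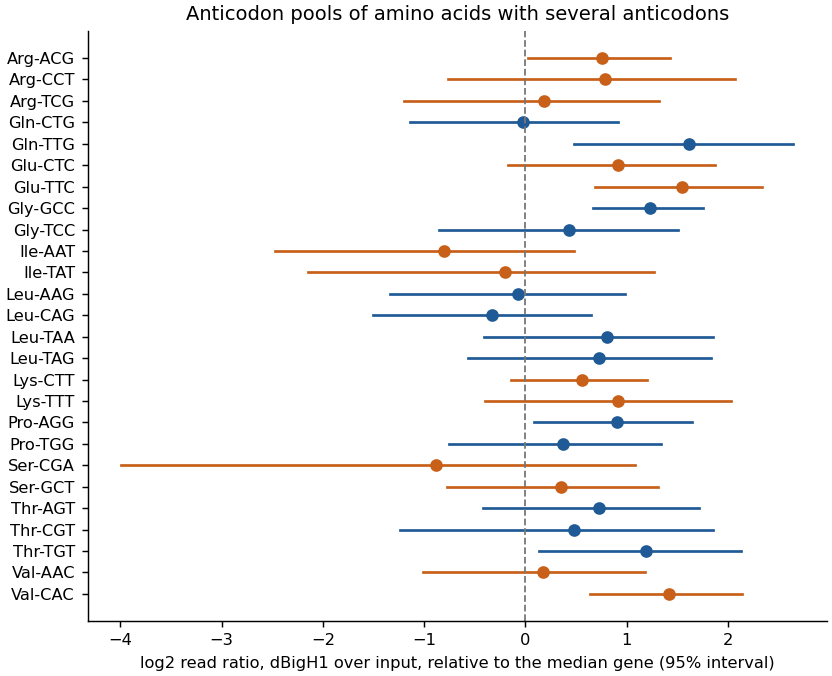
Log2 ratio of summed reads, dBigH1 over input, relative to the median gene (horizontal axis), for anticodon pools with at least 30 input reads, shown for amino acids with more than 1 such pool (bars, 95% counting interval). Colours alternate between amino acids. Glutamine CTG at -0.03 and TTG at 1.62 form the only 1 of 20 pairs whose difference had an interval off 0, with no allowance for the number of pairs.

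The pools were also set beside the other genes that reached within 20 kb of their members. Those 807 genes had a pooled log2 ratio of 0.35 (0.34 to 0.36), and all tRNA genes together lay 0.31 above them (0.17 to 0.45). The zero-truncated estimate for tRNA genes, 0.38, lay close to the value of these neighbours. The anticodon pools named next are those, out of 45, whose difference from neighbours had an interval off 0 on summed reads. No allowance was made for the number of pools, and for the others the interval spanned 0. Glycine GCC genes lay 1.13 above their neighbours (0.56 to 1.66), whose own ratio was 0.10. Glutamate TTC genes lay 1.18 above theirs (0.32 to 1.97) and valine CAC genes 0.96 (0.18 to 1.68). The difference was 0.59 (0.07 to 1.07) for aspartate GTC genes and 1.66 (0.52 to 2.69) for glutamine TTG genes. Of the glutamate TTC genes, tRNA:glu4:56Fa, tRNA:glu4:56Fb and tRNA:glu4:56Fc lie in the cluster beside the 5S genes described below. That cluster stood at 1.24 and its own neighbours at 1.28. Leucine CAG genes lay below their neighbours, with a difference of -1.09 (-2.26 to -0.11). Members had been ranked by the same reads, so these differences describe pools already known to be high or low. They also use summed reads, which the listing rule raises for tRNA genes. The zero-truncated interval of aspartate GTC, 0.39 to 1.34, spanned its neighbours' 0.43. Those of glycine GCC (0.53 to 1.58) and glutamate TTC (0.63 to 2.12) lay above their neighbours at 0.10 and 0.37. Those of valine CAC (0.69 to 1.98) and glutamine TTG (0.53 to 2.37) lay above theirs at 0.46 and -0.05.

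Joining tRNA genes separated by at most 10 kb gave 23 clusters of 3 or more genes, which held 98 genes. In 11 clusters every gene belonged to 1 amino acid. Genes in clusters had a pooled ratio of 0.57 (0.35 to 0.79) and the 132 genes outside had 0.72 (0.54 to 0.90), a difference of -0.15 (-0.43 to 0.14) that lay within counting error. The zero-truncated estimates were 0.26 (0.00 to 0.50) in clusters and 0.46 (0.25 to 0.65) outside. The intervals of 3 clusters lay wholly above the median gene and of 0 below, and the zero-truncated estimates gave the same counts.

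Among clusters of at least 5 genes, the one with the highest ratio held 5 glutamate and 2 initiator methionine genes (chromosome 2R, 15613125 to 15616858). Of the glutamate genes, tRNA:CR30449 is a pseudogene by its RefSeq symbol and had 3 dBigH1 reads against 8 input reads. These 7 genes had 18 dBigH1 reads against 68 input reads and a log2 ratio of 1.24 (0.40 to 2.01). Of the 58 other genes within 20 kb, 54 were 5S ribosomal RNA genes, a tandem array also transcribed by RNA polymerase III. Those 58 genes had 358 against 1320 reads and stood at 1.28 (1.10 to 1.45). The tRNA cluster differed from them by -0.04 (-0.89 to 0.75).

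The 12 genes of arginine, asparagine and lysine at the largest cluster (chromosome 2R, 2040108 to 2066161) had 23 dBigH1 reads against 140 input reads and stood at 0.55 (-0.15 to 1.20), beside neighbours at 0.38. The 7 genes of alanine, proline and valine on chromosome 3R (13443832 to 13457472) had 14 against 98 and stood at 0.35 (-0.57 to 1.17), the same as their neighbours at 0.35. The 5 arginine and 1 asparagine genes on 3R (3965255 to 3966764) had 11 against 71 and stood at 0.47 (-0.60 to 1.39), beside 0.25. The 3 cysteine and 2 lysine genes on 3L (3095737 to 3097590) had 11 against 69 and stood at 0.51 (-0.56 to 1.44), beside 0.16. The cluster of 4 isoleucine genes and 2 genes the table names leucine, on 2R (9317787 to 9325444), had 10 against 110 and stood at -0.30 (-1.40 to 0.63), beside 0.04. The zero-truncated estimates of these clusters were 0.16 for arginine, asparagine and lysine, 0.02 for alanine, proline and valine, 0.00 for arginine and asparagine, 0.26 for cysteine and lysine, and -0.88 for isoleucine. All 5 of these clusters differed from their neighbours by less than counting error.

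Of 22 clusters with neighbours, 1 had a difference from them whose interval left 0. These were 3 glutamate genes that each overlap another gene (chromosome 2R, 12106879 to 12107628), with 9 dBigH1 reads against 28 input reads and a log2 ratio of 1.52 (0.25 to 2.65), beside neighbours at -0.01. The difference was 1.53 (0.26 to 2.66). It rested on tRNA:CR30238, with 6 of the 9 reads, without which the cluster stood at 0.50 (-1.90 to 2.26). The third cluster wholly above the median gene held 3 glycine genes on 2L (14518091 to 14518691), with 9 against 24 reads at 1.74 (0.45 to 2.90). Only 1 other gene lay within 20 kb of it, at 1.52 on 9 dBigH1 reads, and without its highest member the cluster stood at 1.67 (-0.15 to 3.23).

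Across the 22 clusters, Pearson's r between the tRNA ratio and the neighbours' ratio was 0.56 and Spearman's rho 0.50. Without the 2 clusters whose neighbours were farthest from the median neighbour value, r was 0.32 and rho 0.36, so that the relation rested in part on those 2. The points share both libraries and part of their reads where a tRNA gene lies inside another gene, and the tRNA ratios rest on 4 to 23 dBigH1 reads each.

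**Figure D4:**
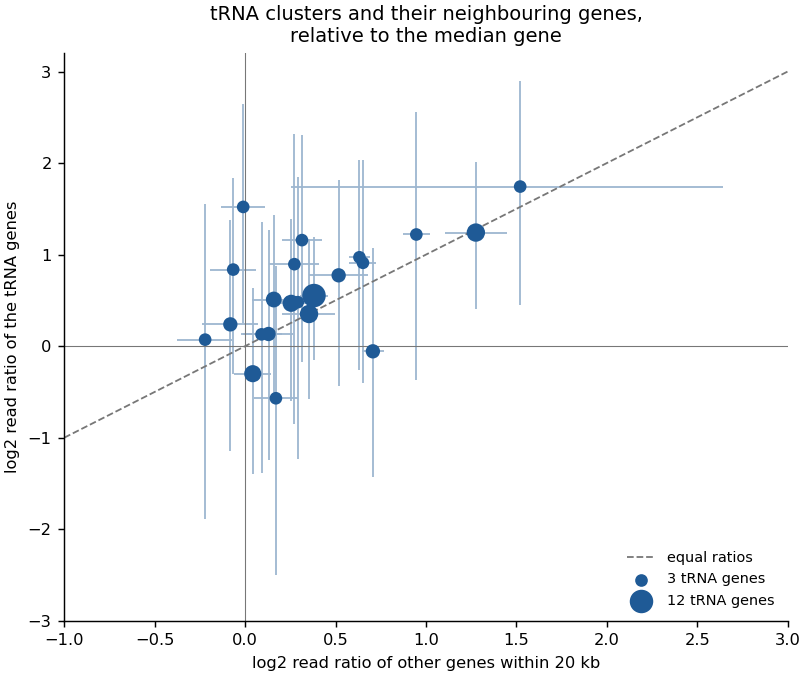
Log2 read ratio of the tRNA genes of each cluster (vertical axis) against that of the other genes within 20 kb (horizontal axis), both relative to the median gene, with 95% counting intervals and circle area for the number of tRNA genes. The dashed line marks equal ratios. The tRNA cluster next to the 5S genes, at 1.24 beside 1.28 for its neighbours, lies close to the line, and most vertical bars reach it.

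Position inside another gene made no difference that could be detected. The 97 tRNA genes that overlapped another listed gene had 209 dBigH1 reads against 1205 input reads and stood at 0.63 (0.41 to 0.84). The 133 that overlapped none had 292 against 1627 and stood at 0.68 (0.50 to 0.86). The difference was -0.05 (-0.33 to 0.23), and the zero-truncated estimates were 0.34 (0.08 to 0.57) for overlapping genes and 0.40 (0.19 to 0.60) for the others. By chromosome, the 64 genes on 3R stood at 0.83 (0.58 to 1.08), the 39 on 2L at 0.76 (0.41 to 1.08), the 10 on the X at 0.64 (-0.29 to 1.47), the 83 on 2R at 0.55 (0.31 to 0.79) and the 34 on 3L at 0.44 (0.04 to 0.82). Adjacent arms in that order overlapped in their intervals. All other genes of these arms, pooled, stood at 0.28 on 3R, 0.38 on 2L, 0.49 on the X, 0.24 on 2R and 0.38 on 3L. On summed reads the tRNA intervals of the X and 3L spanned these values, and those of 3R, 2L and 2R lay above them. With the zero-truncated estimate 3R stood at 0.65 (0.38 to 0.90) and 2L at 0.51 (0.13 to 0.85). The intervals of 2R at 0.22 (-0.07 to 0.48) and 3L at 0.04 (-0.46 to 0.48) then spanned the median gene, and the X turned to -0.36 (-1.99 to 0.76). Of these zero-truncated intervals only that of 3R lay above the other genes of its arm. The median X-linked tRNA gene had 7 input reads, against 11 to 13 on the autosomal arms, and males carry 1 X.

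Other short genes gave the scale for such values. The 100 genes of 5S ribosomal RNA had 578 dBigH1 reads against 2041 input reads and a log2 ratio of 1.34 (1.20 to 1.47), with a zero-truncated estimate of 1.33. tRNA genes lay below them by -0.68 (-0.87 to -0.48). The 181 genes of small nucleolar and small nuclear RNAs stood at 0.93 (0.80 to 1.05), with a zero-truncated estimate of 0.84, and tRNA genes differed from them by -0.27 (-0.45 to -0.08). The 171 microRNA genes of up to 150 bp stood at 0.50 (0.33 to 0.66), and tRNA genes differed from them by 0.16 (-0.06 to 0.38) on summed reads. The zero-truncated estimate was 0.38 (0.22 to 0.53) for tRNA genes and 0.10 (-0.10 to 0.30) for microRNA genes, a difference that was not tested. The 102 remaining genes of up to 150 bp stood at 0.62 (0.42 to 0.82) with a zero-truncated estimate of 0.39, and tRNA genes differed from them by 0.04 (-0.21 to 0.28).

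Protein genes that make, load and process tRNAs were described from lists of 64 genes, of which 62 were in the table. These genes had 6 to 408 dBigH1 reads each. Among the 20 cytosolic aminoacyl-tRNA synthetase genes, 0 exceeded the median gene by 1.5-fold and 4 were lower by 1.5-fold or more, and their median log2 ratio was -0.32, where the median of all genes is 0. The share lower, 20%, was near the 17.3% of all genes. The intervals of 5, or 25%, lay wholly below, beside 9.41% of all genes, and those of the other 15 spanned the median gene. SerRS had 14 dBigH1 reads against 257 input reads (-1.04, -1.93 to -0.27), and alpha-PheRS, a subunit of the phenylalanine enzyme, had 6 against 152 (-1.50, -2.97 to -0.35). ValRS had 34 against 464 (-0.61, -1.16 to -0.11), GlyRS had 23 against 318 (-0.63, -1.31 to -0.02) and CysRS had 30 against 394 (-0.56, -1.14 to -0.02). ArgRS was the highest, with 29 against 173 (0.58, -0.04 to 1.16). IleRS, whose tRNA genes formed the lowest pool, had 43 against 442 (-0.20, -0.69 to 0.25).

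The 15 listed mitochondrial synthetase genes had a median of -0.29, with 0 higher by 1.5-fold or more and 2, or 13.3%, lower, beside 17.3% of all genes. CysRS-m had 11 dBigH1 reads against 244 input reads (-1.31, -2.33 to -0.45) and ValRS-m had 25 against 420 (-0.91, -1.56 to -0.33). AspRS-m was the highest, with 70 against 543 (0.20, -0.18 to 0.56).

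Of 12 genes of the RNA polymerase III machinery, 2 were higher by 1.5-fold or more and 2 lower, with a median of -0.14. Each count is 16.7% of the list, near the 16.2% of all genes that were higher and the 17.3% that were lower. Maf1, which encodes the repressor of the polymerase and lies on an unplaced scaffold, had 408 dBigH1 reads against 1117 input reads and a log2 ratio of 1.71 (1.54 to 1.87). CG5380, the polymerase subunit gene Polr3F, had 33 against 168 (0.81, 0.23 to 1.36). La, which encodes a protein that binds new polymerase III transcripts, had 15 against 247 (-0.88, -1.74 to -0.13). CG7099, a TFIIIC subunit gene, had 49 against 697 (-0.67, -1.12 to -0.25).

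Of 15 genes for tRNA processing and modification, 7, or 46.7%, were lower by 1.5-fold or more, beside 17.3% of all genes, and 0 higher, with a median of -0.57. For 6, or 40%, the interval lay wholly below, beside 9.41% of all genes. Tgt, a tRNA guanine transglycosylase gene, had 11 dBigH1 reads against 230 input reads (-1.23, -2.25 to -0.36), and the tRNA methyltransferase gene Mt2 had 8 against 160 (-1.16, -2.40 to -0.15). The ligase gene Rtcb had 15 against 252 (-0.91, -1.77 to -0.16), and Adat1, an adenosine deaminase gene for tRNA, had 27 against 375 (-0.64, -1.26 to -0.07). The Elongator subunit gene Elp3 had 14 against 222 (-0.83, -1.72 to -0.05). Trm7-32, a tRNA methyltransferase gene, was the highest at 0.06 (-0.76 to 0.78).

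**Figure D5:**
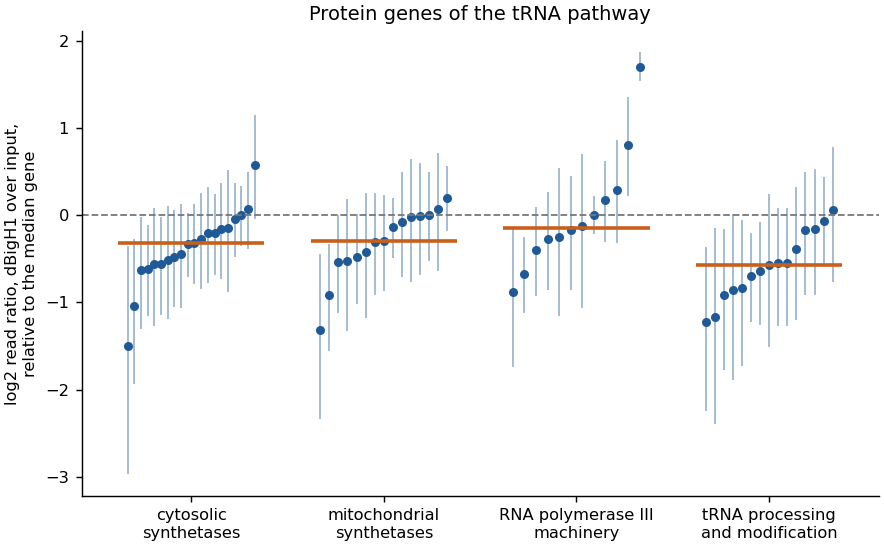
Log2 read ratio, dBigH1 over input, relative to the median gene (vertical axis) for single protein genes of the tRNA pathway, by list (points, bars for the 95% counting interval, thick lines for list medians). The medians lie between -0.57 and -0.14, and Maf1, at 1.71, is the highest point.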

How the data were processed

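ChIP-seq of dBigH1 and input DNA were compared in whole testes, with 1 library each. The submitters' processing notes list R 2.15, FastQC 0.10, Bowtie2, CASAVA 1.9 and genome build dm3. The sources used here do not give the rule that assigned reads to genes, or the handling of reads that match several tRNA copies. Per the file headers, the authors deposited log2 RPKM values. Subtracting an offset of 1, read from the values themselves, turned 100% of both columns into whole reads (tolerance 0.01 read). The column the authors deposited as MAnorm fold change is a standardized score (SD 0.999) and served as an alternative only.

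Reads were summed over tRNA genes, amino acids, anticodons and clusters, scaled by library totals and the median gene, with Clopper-Pearson intervals. Pools were compared by exact conditional odds ratios (scipy 1.17.1, pandas 2.3.3). With 1 library a group no p-value was computed. The estimators were checked on simulated reads.

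The tRNA genes named are the 10 with the most dBigH1 reads, the 5 with the most input reads, all with an interval off the median gene, and the 3 highest and 3 lowest ratios among those with at least 5 dBigH1 reads. Of each protein gene list, the highest and lowest member with at least 10 dBigH1 reads and every member with an interval off the median gene are named, except 1 that is not reported here. IleRS, tRNA:CR31888 and the clusters of 3 genes were named after their values were seen. Members and lists were chosen with earlier results of these data known. 1 gene was dropped from the polymerase list, because its role was unsure, after the files had been opened. RefSeq names, anticodons and their pairs, comparisons of pools with neighbouring genes, RefSeq pools without their highest member, copy classes and the correlation without the outermost clusters were all added after values had been seen. RefSeq Release 6 symbols served for names only. Sequences of tRNA genes were not used here.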

Additional observations from a re-analysis of the deposited data

How the results depend on the processing

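The pooled tRNA ratio of 0.66 became 0.26 on the scale of summed reads of all genes, 0.38 with the zero-truncated estimate and -0.18 (-0.72 to 0.31) with at least 20 input reads. That filter kept 16 of 230 genes and, by selecting on the denominator, lowers ratios by an amount that was not measured. Changes of sign under it therefore cannot settle the direction. With the other alternatives it lay between 0.60 and 0.68. The median tRNA gene, at 0.57, became 0.18 on the scale of summed reads and 0.37 among genes at an RPKM of 5 or more in each library, and it was -0.23 with at least 20 input reads and reversed to -0.28 on the deposited MAnorm score. The counts of 106 higher and 30 lower genes became 2 and 5 with at least 20 input reads and 64 and 15 among genes overlapping no other, where fewer genes entered by construction. Higher genes numbered 76 and lower genes 46 on the scale of summed reads, and 71 and 9 at 2-fold. With 1 added to each RPKM they numbered 93 and 30. Amino acid pools above the median gene, 2 by the table's names, were 0 with at least 20 input reads and 10 of 21 by RefSeq names with both kinds of methionine joined, an alternative chosen after seeing the data. The zero-truncated estimate put 1 pool, isoleucine at -1.98, below. It could not be computed for histidine, whose only gene had 1 dBigH1 read. Clusters above the median gene, 3 in all, were 0 with at least 20 input reads, 1 without each cluster's highest member and 5 with a gap of 50 kb. Among single amino acid pools, arginine moved to -0.16 with at least 20 input reads, a filter that kept 4 of 17 pools, and the values of the other pools moved by less than their intervals under each alternative. No paired analysis was possible because there was no second library of either kind. Each group had 1 library, only genes with at least 1 read in each were listed, and 34.8% of tRNA genes rested on 1 dBigH1 read.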

Other observations

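RefSeq symbols also group tRNA genes that share a mature sequence. The 117 genes with 6 to 13 copies of their mature sequence had 276 dBigH1 reads against 1437 input reads and a log2 ratio of 0.78 (0.59 to 0.96) relative to the median gene. The 81 genes with 2 to 5 copies had 165 against 1002 and stood at 0.56 (0.31 to 0.80), and the 26 with 1 copy had 47 against 328 and stood at 0.36 (-0.12 to 0.80). The zero-truncated estimates were 0.55, 0.21 and -0.12. Genes with 6 or more copies lay 0.42 above genes with 1 copy, but the interval of -0.06 to 0.93 spanned 0, and this grouping was chosen after the values were seen. Input reads per gene averaged 12.3 ± 4.65 for genes with 6 or more copies, 12.4 ± 5.23 for 2 to 5 copies and 12.6 ± 5.51 for 1 copy (SD over 117, 81 and 26 genes).

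The 4 genes named as pseudogenes in the table or in RefSeq had 8 dBigH1 reads against 33 input reads and stood at 1.11 (-0.21 to 2.26), with a zero-truncated estimate of 0.78 (-0.81 to 1.87). Without them the pooled ratio of the other tRNA genes was 0.65 (0.51 to 0.79), an alternative added after seeing the data.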
